A study of Mus musculus with 39 samples.

Results

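The genes described here are 9 transcription factor genes linked to macrophage maturation: Maf, Bhlhe40, Bhlhe41, Nr1h3, Mlxipl, Tfec, Etv1, Id3 and Klf4. They were chosen by name, with earlier results of these data known, as the rows whose Ensembl identifier maps to these symbols. They are 9 of the 53379 genes in the count table. The RNA came from C57Bl/6 mouse embryo brains in which microglia, the macrophages of the brain tissue, and border-associated macrophages (BAM), those of the brain's coverings, vessels and choroid plexus, were collected separately. No genotype other than the strain, and no treatment, is given for any group. There were 19 microglia libraries, with 4, 3, 3, 2, 3 and 4 at embryonic days E10.5, E11.5, E12.5, E14.5, E16.5 and E18.5, and 20 BAM libraries, with 4, 3, 3, 3, 3 and 4 at the same stages. The labels do not say whether libraries of a group came from separate litters or from pooled embryos, so the p-values measure only the spread between these samples, which may in part be technical.

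Macrophages of different tissues share a common set of regulators and differ in further factors that are switched on as the cells settle and mature. Large Maf proteins are basic leucine zipper factors that promote macrophage differentiation and restrain self-renewal, and Bhlhe40 and Bhlhe41 are closely related basic helix-loop-helix repressors that bind E-box sequences, take part in the circadian clock and sustain the proliferation of some resident macrophages. Nr1h3 encodes the oxysterol receptor LXR alpha, which pairs with retinoid X receptors and controls cholesterol export and lipid genes. Mlxipl encodes the glucose-responsive factor ChREBP, which works with Mlx. Tfec belongs to the MiT/TFE family of lysosome and macrophage regulators, Etv1 is an ETS factor, Id3 is a helix-loop-helix inhibitor of E proteins, and Klf4 is a zinc finger factor of monocyte and macrophage differentiation.

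The promoter windows of Bhlhe41 and Mlxipl are shown first because both genes were lower in BAM than in microglia and both windows hold the E-box letters that Bhlhe proteins are known to bind. Those of Etv1 and Tfec are shown for the opposite direction, higher in BAM. The windows run from 250 bases before to 50 bases after the RefSeq start (build GRCm38.p6), written 5′ to 3′ on the strand of the gene. Capitals mark the E-box CACGTG in the first pair of sequences and the Maf half-site TGCTGA in the third, and the Tfec window holds neither.
Bhlhe41, chr6:145865371-145865670, minus strand: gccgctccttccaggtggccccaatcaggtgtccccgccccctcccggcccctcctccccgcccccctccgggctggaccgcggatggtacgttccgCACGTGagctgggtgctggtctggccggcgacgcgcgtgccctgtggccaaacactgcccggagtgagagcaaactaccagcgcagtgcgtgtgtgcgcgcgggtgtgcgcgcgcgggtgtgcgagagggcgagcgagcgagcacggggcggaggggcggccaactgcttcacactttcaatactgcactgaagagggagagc
Mlxipl, chr5:135089640-135089939, plus strand: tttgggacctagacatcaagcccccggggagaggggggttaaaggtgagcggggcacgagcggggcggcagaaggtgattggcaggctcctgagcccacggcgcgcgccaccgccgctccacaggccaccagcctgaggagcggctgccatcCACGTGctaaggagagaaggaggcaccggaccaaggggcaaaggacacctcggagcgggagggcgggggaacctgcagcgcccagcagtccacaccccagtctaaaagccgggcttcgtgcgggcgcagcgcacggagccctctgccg
Etv1, chr12:38783461-38783760, plus strand: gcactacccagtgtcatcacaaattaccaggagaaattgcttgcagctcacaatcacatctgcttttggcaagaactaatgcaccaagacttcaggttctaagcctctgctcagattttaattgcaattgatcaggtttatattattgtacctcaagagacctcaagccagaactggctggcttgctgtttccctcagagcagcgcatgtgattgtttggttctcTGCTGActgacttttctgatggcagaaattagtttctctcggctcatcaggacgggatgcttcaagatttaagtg
Tfec, chr6:16898392-16898691, minus strand: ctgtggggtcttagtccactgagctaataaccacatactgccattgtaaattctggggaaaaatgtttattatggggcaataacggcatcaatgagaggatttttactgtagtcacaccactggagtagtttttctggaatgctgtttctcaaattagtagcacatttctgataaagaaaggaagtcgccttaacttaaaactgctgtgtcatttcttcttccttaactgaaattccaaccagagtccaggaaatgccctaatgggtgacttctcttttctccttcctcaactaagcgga

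Of the 9 genes, 7 had a window in the RefSeq table, 10 windows in all, and Maf and Bhlhe40 had none there. Both strands were searched for the E-box CACGTG, which was in 1 window each of Bhlhe41, Klf4 and Mlxipl and lay 153, 182 and 98 bases before the start. Among 32817 windows of 300 bases, 7.15% held it. The Maf half-site TGCTGA was in 1 of the windows of Etv1, 25 bases before the start, and in 19.5% of all windows. The ETS site GAGGAAGT was in none of the 10 windows and in 3.20% of all windows. The other windows of Mlxipl and Etv1, which are not shown, held none of the searched motifs. Klf4, whose window holds the E-box, was not called between the populations at any stage. The searched motifs do not overlap each other in these windows, and a match describes letters only.

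The sorted populations were told apart by their markers. All 8 microglia markers, among them P2ry12, Tmem119 and Sall1, were lower in BAM, and all 8 BAM markers, among them Mrc1, Lyve1 and Pf4, were higher (edgeR, mean over stages). In E12.5 microglia, replicate 3 stood apart: the summed level of the BAM markers was 6654 CPM there against 3512 and 2172 in replicates 1 and 2, and that of the microglia markers 6433 CPM against 11350 and 9840. The BAM marker sum was also high in early microglia, at 3800 to 6395 CPM at E10.5 and 6836 to 10199 CPM at E11.5. At E18.5 it was 2249 to 2513 CPM. Its bearing on the 9 genes was not tested. Library totals ran from 10692763 to 47182711 counts with a median of 22395273. Library numbers begin with R10 in 16 libraries (20630490 to 47182711 counts) and with R8 in 23 (10692763 to 24339829). The E10.5 and E11.5 libraries and replicate 1 of each E18.5 group are R10 and all others R8, so a change from E10.5 to E18.5 crosses these number series while microglia and BAM of 1 stage share them.

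Levels are given as CPM, the count per 1000000 counts of the library, and differences as log2 values with standard errors from 1 edgeR quasi-likelihood fit of all 39 libraries. A difference counts as called where the Benjamini-Hochberg adjusted p over the 22061 tested genes was under 0.05, and all 9 genes passed the filter on low counts. Averaged over the 6 stages, 7 of the 9 genes were called, where 28.2% of all tested genes were. The genes were chosen with earlier results of these data known, so member counts beside that share, here and below, are descriptions only. Maf, Etv1, Tfec and Id3 were higher in BAM, Bhlhe40, Bhlhe41 and Mlxipl were lower, and Nr1h3 and Klf4 were not called. The median log2 difference was 0.26 over the 9 genes and -0.02 over all tested genes, as members of both signs stood side by side.

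Stage by stage, 5 of the 9 genes were called at E10.5, beside 4.48% of all tested genes. The count was 4 at E11.5 (6.66% of all tested genes), 5 at E12.5 (8.54%) and 5 at E14.5 (7.18%). It was 6 at E16.5 (13.8%) and 7 at E18.5 (15.4%), with 4 genes higher in BAM (6.70%) and 3 lower (8.75%) at E18.5. Called at every one of the 6 stages were Maf and Etv1, higher in BAM, and Bhlhe41, lower. In these bulk libraries, fewer cells of a kind and less RNA per cell cannot be told apart.

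Where the libraries themselves are compared, the populations did not overlap at E10.5 for 3 genes that were higher in BAM and 3 that were lower, beside 7.43% of all tested genes. The counts were 5 and 3 at E11.5 (17.7% of all tested genes), 3 and 3 at E12.5 (22.9%), E14.5 (35.2%) and E16.5 (33.4%), and 3 and 2 at E18.5 (21.2%). Maf, Etv1, Bhlhe41 and Mlxipl were apart at all 6 stages and Klf4 at none. Maf, Bhlhe40, Bhlhe41 and Mlxipl each overlap an antisense gene, and Nr1h3 a gene on its own strand. The longest shared exon stretch was 510 bases, in Bhlhe41. Those other genes held at most 61 counts in all libraries together. Whether reads in the shared stretches were left out of the member counts was not tested.

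**Figure D1:**
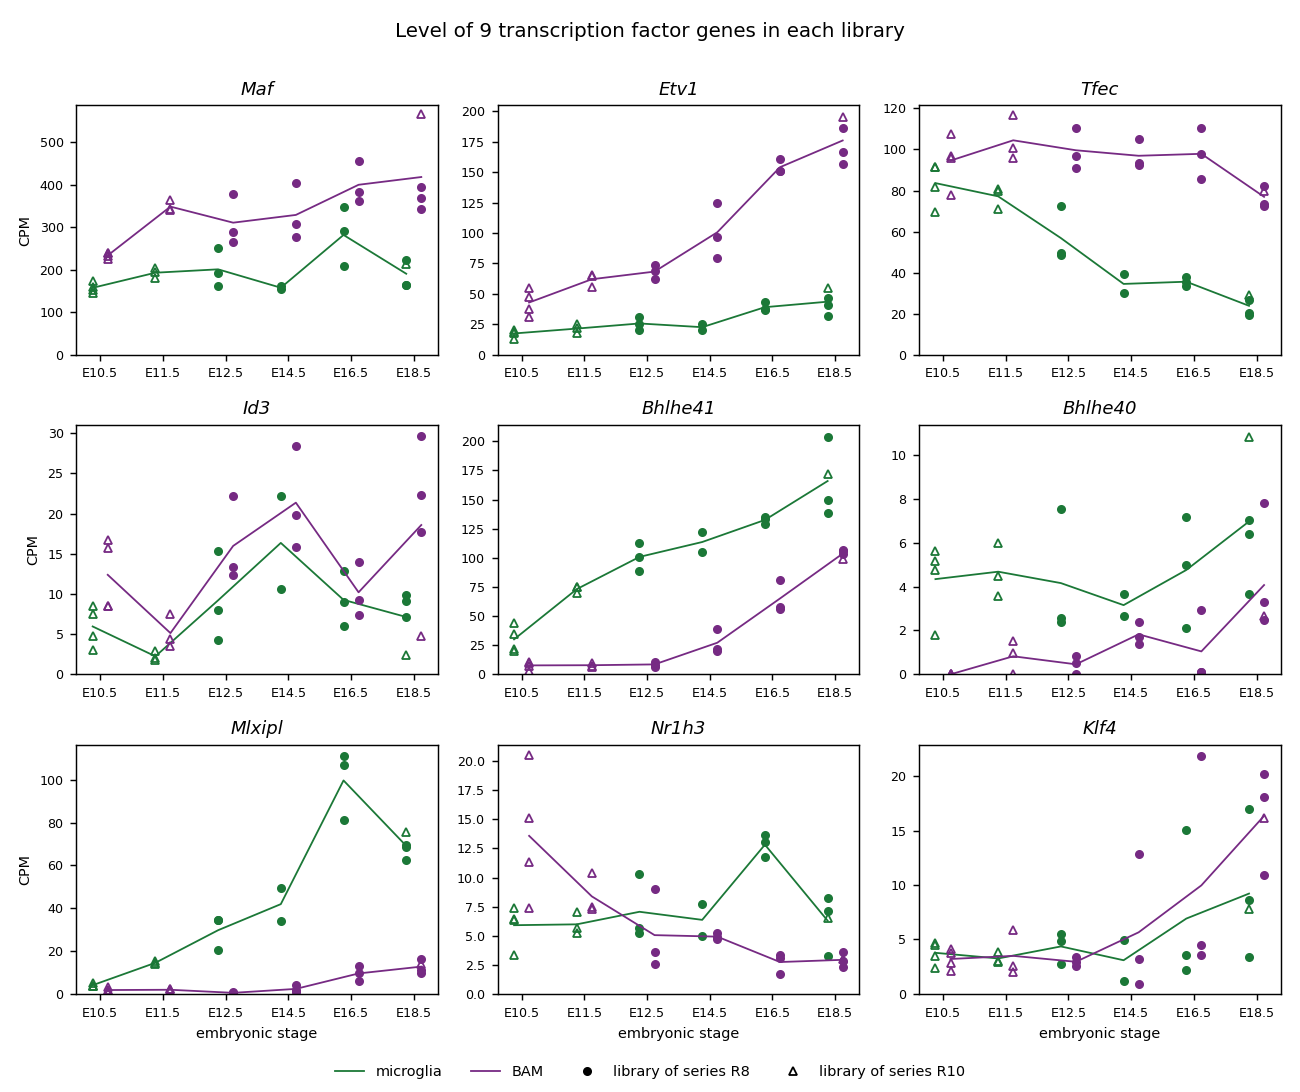
CPM of the 9 genes in each of the 39 libraries (y axis, linear, starting at 0) by embryonic stage (x axis). Green is microglia and purple BAM, filled circles are libraries of series R8, open triangles those of series R10, and lines join the group means. Maf, Etv1 and Tfec lie higher in BAM, Bhlhe41 and Mlxipl higher in microglia, and the Klf4 points of the populations overlap at all 6 stages.

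Set per kilobase of gene length, the group means of Maf ranged from 19.1 CPM per kilobase in E10.5 microglia to 50.7 in E18.5 BAM, and its lowest group exceeded the highest group of Etv1 (13.2), Id3 (11.9), Klf4 (5.36), Nr1h3 (5.40), Tfec (18.7), Mlxipl (18.01) and Bhlhe40 (1.48). Bhlhe41 reached 24.7 CPM per kilobase in E18.5 microglia. Bhlhe40 was the member with the lowest peak. It was also the only one with libraries at 0 counts, 6 of the 39, all of them BAM.

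**Figure D2:**
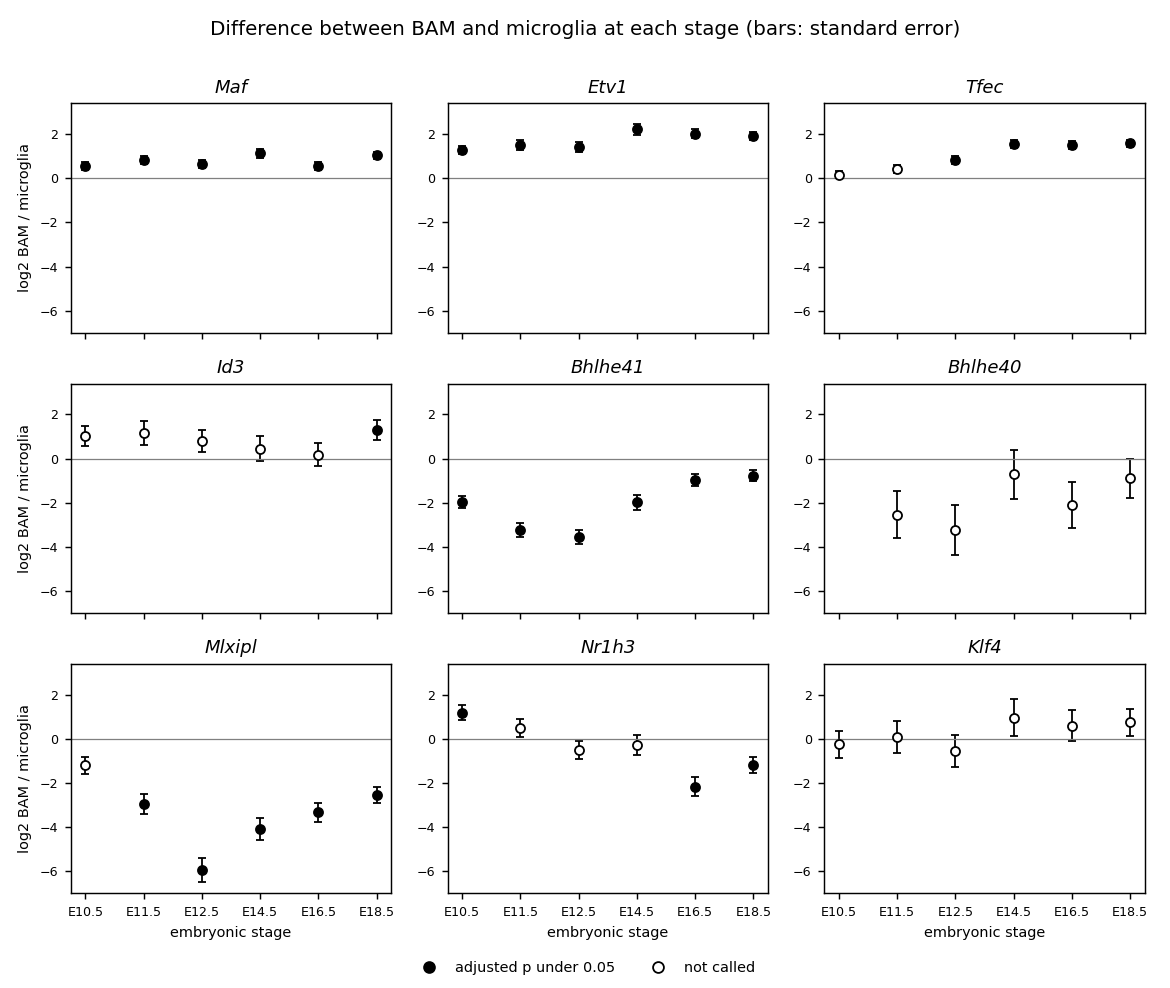
Log2 difference between BAM and microglia (y axis) at each stage (x axis) for the 9 genes, with standard errors from edgeR as bars. Filled points have an adjusted p under 0.05, and Bhlhe40 at E10.5 is left out because its BAM libraries are all at 0. Maf and Etv1 stay above 0 and Bhlhe41 below 0 at all 6 stages, while Nr1h3 goes from 1.19 at E10.5 to -2.18 at E16.5.

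Maf (ENSMUSG00000055435, GRCm38 chr8:115682942-115707794, minus strand) encodes c-Maf. It was higher in BAM than in microglia at every stage. At E10.5 the microglia libraries held 152, 158, 146 and 173 CPM and the BAM libraries 232, 239, 225 and 238 CPM. At E11.5 they held 204, 181 and 194 CPM against 342, 363 and 340 CPM. Every BAM library lay above every microglia library of its stage, here and at the 4 later stages.

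At E12.5 Maf stood at 192, 161 and 250 CPM in microglia and 290, 264 and 378 CPM in BAM. The E14.5 values were 154 and 161 CPM against 403, 276 and 308 CPM, and the E16.5 values 290, 208 and 347 CPM against 383, 361 and 455 CPM. Microglia replicate 3, which stood apart in its markers, was the highest at E12.5 here and for Etv1, Nr1h3, Tfec and Id3, and the lowest for Bhlhe41 and Mlxipl. Without it the E12.5 differences were 0.85 for Maf, 1.61 for Etv1, 1.06 for Tfec and 1.41 for Id3 (0.65, 1.43, 0.83 and 0.80 with it). For Nr1h3 the difference was -0.12 without it and -0.51 with it. The E12.5 and E16.5 gaps of Maf between the lowest BAM and the highest microglia library were narrow. By E18.5 the values were 213, 222, 163 and 165 CPM in microglia and 565, 395, 342 and 370 CPM in BAM.

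The log2 difference of Maf averaged 0.79 ± 0.08 over the stages (edgeR, adjusted p = 1.48e-10), and the single stages gave 0.56 ± 0.16, 0.83 ± 0.19, 0.65 ± 0.19, 1.13 ± 0.22, 0.55 ± 0.19 and 1.04 ± 0.17 from E10.5 to E18.5. Some of these calls sat close to the threshold. The call at E10.5 (adjusted p = 0.0447) was lost when any 1 of 7 of the 8 libraries was left out, all but microglia replicate 4 (0.0567 to 0.11). At E12.5 (0.0249; 0.00852 without microglia replicate 3) it was lost without microglia replicate 1 or 2 or BAM replicate 3 (0.0949 to 0.198) and with the E12.5 groups alone (0.0778). At E16.5 (0.0488) it was lost without microglia replicate 1 or 2 or BAM replicate 1 or 3 (0.0719 to 0.306), with DESeq2-type size factors (0.0553) and with the E16.5 groups alone (0.0663).

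In BAM, Maf rose from E10.5 to E18.5 by a log2 change of 0.82 ± 0.17 (edgeR, adjusted p = 0.000158). The early step from E10.5 to E11.5 was 0.60 ± 0.18 (adjusted p = 0.042), a call lost on leaving out any 1 of the 7 libraries (0.067 to 0.14), although the lowest E11.5 library lay above the highest E10.5 library. In microglia the change from E10.5 to E18.5 was 0.34 ± 0.16 (adjusted p = 0.112). The difference between these changes was 0.48 ± 0.23 (adjusted p = 0.258), which was not called. It was called with adjacent library numbers as blocks (edgeR, adjusted p = 0.0256). In the order of the 12 group means, no neighbouring pair was further apart than the sum of their standard deviations, and the means ranged from 418 ± 101 CPM (SD, n = 4) in E18.5 BAM to 157 ± 11.496 CPM (n = 4) in E10.5 microglia.

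The other Maf-family and CNC/Bach genes did not share this direction. Of 8 tested, 0 were higher in BAM and 6 were lower over the stages (28.2% of all tested genes were called in either direction; median -0.39 against -0.02), and Mafa and Nrl did not pass the filter. Bach2, a repressor that pairs with small Maf proteins, was lower in BAM by -1.44 ± 0.14 (edgeR, mean over stages), and the small Maf gene Mafg by -0.33 ± 0.05.

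Myc, Klf2 and Sirt1, genes tied to macrophage self-renewal, formed a separate list of 3. Myc was lower in BAM over the stages by -0.23 ± 0.09 (edgeR, adjusted p = 0.046). It fell from E10.5 to E18.5 by 0.58 on the log2 scale in microglia and by 1.20 in BAM. Klf2 (-0.37 ± 0.26) and Sirt1 (-0.19 ± 0.15) were not called.

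Bhlhe41 (ENSMUSG00000030256, GRCm38 chr6:145858243-145865558, minus strand) encodes the repressor DEC2. It was higher in microglia at each stage and rose with stage in both populations, early in microglia and late in BAM. The E10.5 values were 34.9, 43.9, 19.7 and 21.6 CPM in microglia and 6.86, 10.6, 3.19 and 10.1 CPM in BAM. At E11.5 they were 74.5, 74.8 and 70.1 CPM against 6.01, 7.30 and 10.1 CPM, and at E12.5 113, 101 and 88.9 CPM against 10.8, 6.54 and 8.18 CPM. Microglia had thus moved far above BAM, whose libraries stayed at the E10.5 level.

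Later the BAM values of Bhlhe41 came up. The E14.5 libraries held 122 and 105 CPM in microglia and 39.1, 20.4 and 21.8 CPM in BAM, and those of E16.5 135, 133 and 129 CPM against 80.8, 58.0 and 56.4 CPM. At E18.5 the microglia libraries stood at 172, 139, 204 and 149 CPM and the BAM libraries at 99.2, 106, 107 and 103 CPM. Still, no BAM library reached the lowest microglia library of its stage.

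The mean over stages of the Bhlhe41 difference was -2.09 ± 0.12 (edgeR, adjusted p = 1.85e-16). By stage it was -1.97 ± 0.26, -3.24 ± 0.32, -3.57 ± 0.32, -1.99 ± 0.32, -0.98 ± 0.29 and -0.79 ± 0.25 from E10.5 to E18.5, so the gap was widest at E12.5, where mean CPM was 11.8-fold higher in microglia. The E16.5 call (adjusted p = 0.0175) was lost without BAM replicate 2 or 3 (0.0873 and 0.0876). The E18.5 call (0.0257) was lost without microglia replicate 1 or 3 or BAM replicate 1, 3 or 4 (0.0538 to 0.105) and without both R10 libraries (0.155).

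Bhlhe41 rose from E10.5 to E18.5 by 2.54 ± 0.26 in microglia (adjusted p = 1.49e-09) and by 3.73 ± 0.28 in BAM (1.36e-12). In microglia 1.32 ± 0.27 of this came between E10.5 and E11.5 (adjusted p = 0.00107), where the BAM change was 0.05 ± 0.28 (adjusted p = 1). From E12.5 to E18.5 BAM rose by 3.67 ± 0.32 and microglia by 0.89 ± 0.27 (adjusted p = 0.0415), and the difference of these changes was called (2.78 ± 0.39, edgeR, adjusted p = 3.11e-05). The microglia change from E12.5 lost its call without any 1 of 6 of the 7 libraries, all but E18.5 replicate 4 (0.0565 to 0.257). It was also lost with DESeq2-type size factors (0.0522) and without both E18.5 R10 libraries (edgeR, adjusted p = 0.143). Counted from E10.5, the difference of the changes was 1.19 ± 0.36 (edgeR, adjusted p = 0.0377). Its call was lost with the compared groups alone (0.103) and without both E18.5 R10 libraries (0.0579). It was also lost without 11 of the 16 libraries, 1 at a time (0.051 to 0.122), so it hung on single libraries. The 5 that left it called were microglia E10.5 replicates 3 and 4, BAM E10.5 replicates 2 and 4 and microglia E18.5 replicate 3.

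Bhlhe40 (ENSMUSG00000030103, GRCm38 chr6:108660629-108666925, plus strand) encodes DEC1, the paralogue of the Bhlhe41 product. It was present at low level in microglia at all stages and was not detected in BAM at E10.5. At E10.5 the microglia libraries held 4.78, 5.65, 1.79 and 5.16 CPM, and all 4 BAM libraries held 0 counts. With 3 counts over the group as the floor, 0 counts allow up to 0.0280 CPM in BAM, and the level was at least 154-fold higher in microglia. This bound covers counting error only, and even counts were in excess in the table, which makes such a bound less sure. The summed level of 6 monocyte markers ran from 93.5 to 132 CPM in E10.5 microglia and from 7.93 to 18.3 CPM in E10.5 BAM. That of 8 granulocyte and mast cell markers ran from 34.2 to 89.5 CPM and from 1.58 to 4.01 CPM.

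At E11.5 Bhlhe40 stood at 3.59, 6.00 and 4.47 CPM in microglia and 0.969, 0 and 1.501 CPM in BAM. At E12.5 the values were 2.40, 7.54 and 2.55 CPM against 0.843, 0.527 and 0 CPM, and at E14.5 3.65 and 2.67 CPM against 2.38, 1.39 and 1.70 CPM. The populations did not overlap at these stages, though by little at E14.5. At E16.5 the microglia libraries held 4.98, 2.13 and 7.17 CPM and BAM 0.106, 0.0948 and 2.94 CPM, and at E18.5 10.8, 3.65, 7.03 and 6.40 CPM against 2.68, 2.50, 7.82 and 3.30 CPM. Here they overlapped, through BAM replicate 3 at both stages. In E12.5 microglia replicate 2, the highest of its group, the monocyte marker sum was 74.7 CPM, against 8.75 and 16.6 CPM in replicates 1 and 3. In E18.5 microglia, where mean Bhlhe40 was highest, that sum ran from 8.80 to 10.8 CPM. The part of such cells in the Bhlhe40 values was not tested.

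Beyond E10.5 (edgeR, adjusted p = 5.98e-05) the Bhlhe40 difference was not called at any single stage: it was -2.55 ± 1.06 at E11.5, -3.25 ± 1.12 at E12.5 (adjusted p = 0.072), -0.72 ± 1.12 at E14.5, -2.10 ± 1.05 at E16.5 and -0.91 ± 0.87 at E18.5. The E16.5 difference was called without BAM replicate 3 (-5.48, adjusted p = 0.00489). The E12.5 difference was called by DESeq2 (adjusted p = 0.0126), with no filter (0.0351) and with halved counts (0.0401). Averaged over the stages it was called (adjusted p = 1.8e-06), in a fit that includes the group at 0.

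Within BAM, Bhlhe40 rose from E10.5 to E11.5 (at least 27.3-fold, edgeR, adjusted p = 0.0043, with 1 E11.5 library still at 0) and stood at least 149-fold higher at E18.5 than at E10.5 (6.9e-06). From E12.5 to E18.5 the BAM change was 3.25 ± 1.09 (adjusted p = 0.0516), just short of a call, and it was called by DESeq2 (0.00546), with no filter (0.0253) and with halved counts (0.0275). Microglia changed by 0.77 ± 0.86 between E10.5 and E18.5 (adjusted p = 0.529). Over the 12 group means, Bhlhe40 and Bhlhe41 had a Pearson r of 0.83 with each other, and over the 39 libraries 0.75.

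Among 10 clock genes, to whose feedback loop both Bhlhe products belong, 3 were higher and 2 lower in BAM over the stages (28.2% of all tested genes called; median 0.30 against -0.02). Per3, a period gene, was higher in BAM by 1.14 ± 0.06 (edgeR, adjusted p = 8.2e-17), with 38.99 ± 5.39 CPM (n = 4) at E10.5 and 31.5 ± 1.69 at E18.5 against 18.46 ± 2.36 and 15.3 ± 1.66 in microglia. Arntl, which encodes the clock activator BMAL1, was higher by 1.39 ± 0.15 (8.9e-10). It rose from E10.5 to E18.5 by 1.57 ± 0.32 in microglia and by 2.53 ± 0.32 in BAM. Cry1, a cryptochrome repressor, was lower in BAM by -0.43 ± 0.12 (0.0045).

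Mlxipl (ENSMUSG00000005373, GRCm38 chr5:135089890-135138382, plus strand) encodes ChREBP. It climbed in microglia from E10.5 to E16.5 and stayed low in BAM until late. At E10.5 the microglia libraries held 3.76, 3.91, 4.85 and 3.73 CPM and the BAM libraries 0.272, 2.04, 3.42 and 1.45 CPM. At E11.5 the values were 13.9, 15.2 and 14.53 CPM against 2.28, 1.30 and 2.19 CPM. The E12.5 libraries held 34.4, 34.4 and 20.5 CPM in microglia and 0.702, 0.351 and 0.411 CPM in BAM. Replicate 3, which stood apart in its markers, was the lowest of E12.5 microglia, and without it the E12.5 difference was -6.15. The populations were already apart at E10.5 without overlap, and at E12.5 mean CPM was 61.0-fold higher in microglia.

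At E14.5 Mlxipl stood at 49.7 and 34.2 CPM in microglia and 4.17, 1.90 and 0.914 CPM in BAM. Its E16.5 values were 111, 107 and 81.3 CPM against 13.1, 9.62 and 5.96 CPM. By E18.5 they were 75.8, 69.6, 68.8 and 62.5 CPM against 13.8, 16.4, 11.05 and 9.70 CPM. All E18.5 microglia libraries lay below all E16.5 microglia libraries, and E18.5 BAM reached about the level of E11.5 microglia.

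The Mlxipl difference averaged -3.35 ± 0.18 over the stages (edgeR, adjusted p = 4.99e-17). It was not called at E10.5 (-1.21 ± 0.38, adjusted p = 0.0644) and was called at the other 5 stages, at -2.95 ± 0.45, -5.97 ± 0.54, -4.11 ± 0.49, -3.34 ± 0.44 and -2.54 ± 0.37 from E11.5 to E18.5. At E10.5 it was called with no filter (0.0184), with halved counts (0.0479) and by DESeq2 (0.0223). It was also called by edgeR with adjacent library numbers as blocks (0.00634) and without BAM replicate 3 (0.00925). That library had the highest BAM value of its stage.

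Mlxipl rose in microglia by 4.15 ± 0.40 from E10.5 to E18.5 (adjusted p = 2.66e-10) and by 1.86 ± 0.38 from E10.5 to E11.5 (0.0013). BAM changed by 0.13 ± 0.42 in the early step (adjusted p = 0.999) and rose by 4.81 ± 0.52 from E12.5 to E18.5 (4.71e-08). The microglia rise from E12.5 was 1.38 ± 0.39 (edgeR, adjusted p = 0.0235). It lost its call without E12.5 replicate 2 or 3 or E18.5 replicate 1 or 2 (0.0507 to 0.207; 0.0873 without replicate 1 of both E18.5 groups). The BAM change from E12.5 exceeded that of microglia (3.43 ± 0.62, adjusted p = 0.00101). From E10.5 the difference had the other sign and was not called (-1.33 ± 0.52, adjusted p = 0.133), except without BAM E10.5 replicate 1 (0.0111).

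The genes around ChREBP showed no common direction. Of 11 partners and targets, 1 was higher and 3 were lower in BAM over the stages (28.2% of all tested genes called). From E10.5 to E18.5, 1 rose and 3 fell in microglia (35.3%) and 4 rose and 5 fell in BAM (37.6%). Mlx, the partner of ChREBP, stood at 56.2 ± 8.74 CPM (n = 4) in E10.5 and 41.1 ± 2.60 in E18.5 microglia and did not pass the test between populations (0.06 ± 0.07, edgeR, adjusted p = 0.71). Mlxip, the related factor MondoA, was not called either (0.24 ± 0.13, adjusted p = 0.18). Txnip, a target that blocks glucose uptake, was higher in BAM by 0.75 ± 0.07 (3.3e-11) and rose in both populations from E10.5 to E18.5 (1.72 ± 0.15 and 1.92 ± 0.15). Pklr and Thrsp, also on this list, were at 0 in whole groups, so no median is given. Tkfc, an enzyme of fructose metabolism, and Fasn, the fatty acid synthase, were lower in BAM (-0.71 ± 0.13 and -0.53 ± 0.10).

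Nr1h3 (ENSMUSG00000002108, GRCm38 chr2:91184061-91202834, minus strand) encodes LXR alpha. Its difference changed sign with stage: it was higher in BAM at E10.5 and lower at E16.5 and E18.5. At E10.5 the microglia libraries held 3.37, 7.42, 6.35 and 6.47 CPM and the BAM libraries 15.1, 7.40, 20.5 and 11.3 CPM. The values were 5.25, 7.02 and 5.67 CPM against 7.27, 10.4 and 7.47 CPM at E11.5. The ranges touched at E10.5, by 1 BAM library, and were apart at E11.5.

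At E12.5 Nr1h3 stood at 5.24, 5.65 and 10.3 CPM in microglia and 8.99, 2.55 and 3.62 CPM in BAM, and at E14.5 at 4.96 and 7.77 CPM against 5.21, 4.85 and 4.70 CPM. These overlapped. At E16.5 microglia held 11.7, 13.7 and 13.1 CPM and BAM 1.75, 3.37 and 3.10 CPM, far apart. At E18.5 the values were 6.50, 3.27, 7.16 and 8.24 CPM against 2.99, 3.64, 2.78 and 2.30 CPM, with microglia replicate 2 inside the BAM range.

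The log2 difference of Nr1h3 was 1.19 ± 0.36 at E10.5 (edgeR, adjusted p = 0.049), -2.18 ± 0.43 at E16.5 (0.000287) and -1.21 ± 0.36 at E18.5 (0.0179), and between 0.47 and -0.51 without a call at E11.5 to E14.5. The E12.5 value was -0.12 without microglia replicate 3, which stood apart in its markers. The mean over stages was -0.42 ± 0.16 (adjusted p = 0.0506), not called. It was called by DESeq2 (0.0283), with halved counts (0.047) and without any 1 of 11 of the 39 libraries (lowest 0.0136), which were replicate 1 of E10.5 and replicates 1 and 2 of E12.5 and replicate 2 of E18.5 in microglia, and in BAM replicates 1 and 3 of E10.5, replicate 2 of E11.5, replicate 1 of E12.5, replicates 2 and 3 of E16.5 and replicate 2 of E18.5. The E10.5 call was lost without any 1 of 7 of the 8 libraries, all but BAM replicate 2 (0.0551 to 0.188), with no filter (0.0988) and with the E10.5 groups alone (0.109). The E18.5 call was lost without replicate 4 of either population (0.0628 and 0.0656), with no filter (0.0511) and without both R10 libraries (0.0874). Both calls were also lost with adjacent library numbers as blocks (edgeR, 0.123 at E10.5 and 0.0576 at E18.5). The E16.5 call held without each of the 6 libraries in turn.

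In BAM, Nr1h3 fell by 2.23 on the log2 scale from E10.5 to E18.5 (SE 0.37, edgeR, adjusted p = 9.86e-06). Microglia changed by 0.16 ± 0.35 (adjusted p = 0.774), and the difference of these changes was called (-2.39 ± 0.51, adjusted p = 0.00177). The highest microglia stage was E16.5, at 12.8 ± 0.99 CPM (SD, n = 3), and the highest BAM stage E10.5, at 13.6 ± 5.58 CPM (n = 4). These neighbours in the order of groups did not differ beyond their spread.

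Of the 6 LXR partners and corepressors, 1 was higher and 2 were lower in BAM over the stages (28.2% of all tested genes called). No median is given for this list, because Rxrg was at 0 in all libraries of 5 groups. Nr1h2, which encodes LXR beta, did not pass the test (0.03 ± 0.06, edgeR, adjusted p = 0.91) and ran from 72.6 ± 4.82 to 84.5 ± 7.41 CPM in microglia (E10.5 and E18.5, n = 4 each) and from 71.4 ± 4.88 to 103 ± 12.8 CPM in BAM. Rxra, the retinoid X receptor partner, was higher in BAM by 0.27 ± 0.08 (0.0065) and Rxrb lower by -0.65 ± 0.08 (2.5e-08).

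The 12 known LXR targets on the list were all tested. From E10.5 to E18.5, 9 of the 12 rose and 1 fell in microglia (median 1.91) and 8 rose and 2 fell in BAM (median 2.03). Of all tested genes, 35.3% were called in microglia and 37.6% in BAM, with a median of 0.29 in both. Abcg1, a cholesterol exporter, rose by 5.36 ± 0.29 in microglia and by 2.72 ± 0.26 in BAM (edgeR, adjusted p = 3.4e-16 and 2.1e-10). Its level reached 602 ± 55.8 CPM (n = 4) in E18.5 microglia and 142 ± 11.03 in E18.5 BAM.

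Between the populations, 3 of the 12 targets were higher and 7 lower in BAM over the stages (28.2% of all tested genes called; median -0.74 against -0.02). Scd2, a fatty acid desaturase, was lower by -1.94 ± 0.13 (edgeR, adjusted p = 1.3e-14). Pltp, the phospholipid transfer protein, was higher by 1.61 ± 0.11 (9.4e-15). In BAM Pltp rose from 15.9 ± 2.97 to 106 ± 12.4 CPM between E10.5 and E18.5, a log2 change of 2.71 ± 0.23, while Nr1h3 fell. In microglia Pltp stood at 12.7 ± 3.01 and 11.52 ± 2.41 CPM (-0.10 ± 0.23, adjusted p = 0.78).

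Tfec (ENSMUSG00000029553, GRCm38 chr6:16833373-16898441, minus strand) is the MiT/TFE member found mainly in macrophages. It fell in microglia from E10.5 to E18.5, and the change in BAM was smaller. At E10.5 microglia held 69.8, 81.9, 91.3 and 91.5 CPM and BAM 107, 95.8, 97.1 and 78.1 CPM, which overlapped. At E11.5 the values were 80.6, 79.7 and 71.2 CPM against 96.1, 117 and 101 CPM, and at E12.5 48.4, 49.6 and 72.5 CPM against 91.2, 97.1 and 111 CPM. From E11.5 on, no library of one population fell within the range of the other.

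Later Tfec stood at 29.9 and 39.1 CPM in E14.5 microglia and at 92.4, 93.4 and 105 CPM in E14.5 BAM. The E16.5 values were 35.3, 33.5 and 37.9 CPM against 85.6, 97.7 and 110 CPM, and the E18.5 values 29.1, 26.7, 19.3 and 20.3 CPM against 79.8, 82.4, 73.2 and 72.3 CPM. All 20 BAM libraries lay between 72.3 and 117 CPM, and all 4 of E18.5 lay below all 3 of E12.5, as for 23.0% of all tested genes in either direction.

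The log2 difference of Tfec was 0.16 ± 0.15 at E10.5 and 0.42 ± 0.17 at E11.5, neither called. It was called from E12.5 on, at 0.83 ± 0.17, 1.56 ± 0.20, 1.51 ± 0.18 and 1.59 ± 0.15 (edgeR, adjusted p = 0.000822 or less). Microglia fell from E10.5 to E18.5 by 1.75 on the log2 scale (SE 0.15, adjusted p = 4.01e-11) and from E12.5 by 1.08 (SE 0.16, 1.71e-05). BAM changed by -0.32 ± 0.15 from E10.5 (adjusted p = 0.082) and by -0.32 ± 0.16 from E12.5 (adjusted p = 0.221), and the first was called with halved counts (0.0343), without both E18.5 R10 libraries (0.0314) and without E10.5 replicate 4 (0.0393). The difference of the changes from E10.5 was 1.42 ± 0.21 (adjusted p = 1.19e-05). From E12.5 it was 0.76 ± 0.23 (adjusted p = 0.0771). It was called by DESeq2 (0.00769), with DESeq2-type size factors (0.0412) and with adjacent library numbers as blocks (edgeR, 0.0286). It was also called without both E18.5 R10 libraries (0.0422) and without microglia E18.5 replicate 1 (0.029).

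Of the other 3 MiT/TFE genes, 1 was lower and 1 higher in BAM over the stages, where 28.2% of all tested genes were called. Tfeb, a master regulator of lysosome genes, was lower in BAM by -1.40 ± 0.12 (edgeR, adjusted p = 6.5e-12). Tfe3 was higher by 0.27 ± 0.05 (1.5e-05). Mitf, which was not called between the populations (-0.06 ± 0.11, adjusted p = 0.84), rose from E10.5 to E18.5 by 1.80 ± 0.24 in microglia and 0.97 ± 0.23 in BAM.

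Etv1 (ENSMUSG00000004151, GRCm38 chr12:38779380-38870484, plus strand) was higher in BAM at every stage and rose in both populations. At E10.5 it stood at 18.1, 12.96, 18.51 and 20.3 CPM in microglia and 55.0, 47.8, 37.5 and 31.3 CPM in BAM. The E11.5 values were 25.1, 17.5 and 21.8 CPM against 65.7, 55.5 and 64.8 CPM, and the E12.5 values 25.6, 20.2 and 31.3 CPM against 62.5, 68.5 and 73.8 CPM. No BAM library came down to the microglia range.

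At E14.5 Etv1 stood at 20.4 and 24.9 CPM in microglia and 125, 79.7 and 96.9 CPM in BAM. The E16.5 libraries held 37.8, 36.4 and 43.0 CPM against 151, 151 and 160 CPM, and those of E18.5 55.2, 46.3, 31.9 and 41.0 CPM against 196, 166, 156 and 186 CPM. The populations were again apart at each of these stages. Of the 12 groups, only E10.5 BAM lay within the spread of microglia groups, those of E16.5 and E18.5.

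The Etv1 difference averaged 1.73 ± 0.09 (edgeR, adjusted p = 5.8e-18) and ran from 1.28 ± 0.18 at E10.5 (1.28e-05) to 2.22 ± 0.26 at E14.5 (6.84e-08) and 1.91 ± 0.19 at E18.5 (6.15e-10). From E10.5 to E18.5 Etv1 rose by 1.38 ± 0.19 in microglia and by 2.00 ± 0.19 in BAM. The difference of these changes was not called (0.63 ± 0.26, adjusted p = 0.159). From E12.5 the rises were 0.93 ± 0.20 and 1.41 ± 0.20. All of the Etv1 calls between populations held without each library in turn.

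The 10 other ETS genes split, with 2 higher and 4 lower in BAM over the stages (28.2% of all tested genes called; median -0.17 against -0.02). Etv5, of the same PEA3 subgroup as Etv1, was higher in BAM by 0.64 ± 0.07 (edgeR, adjusted p = 5.9e-09) and rose from E12.5 to E18.5 by 1.31 ± 0.18 in microglia and 1.20 ± 0.17 in BAM. Ets1 (-1.29 ± 0.09) and Etv6 (-0.58 ± 0.07) were lower in BAM.

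Id3 (ENSMUSG00000007872, GRCm38 chr4:136143497-136145755, plus strand) was modestly higher in BAM on average, with wide spread between libraries. Over the stages the difference was 0.82 ± 0.21 (edgeR, adjusted p = 0.00214). At E18.5, the only stage with a call, microglia held 2.46, 9.17, 7.09 and 9.82 CPM and BAM 4.73, 17.7, 22.3 and 29.6 CPM. Replicate 1, the R10 library, was the lowest of both groups, and the other 3 BAM libraries lay above all microglia libraries. The E18.5 difference was 1.29 ± 0.45 (adjusted p = 0.0458), a call lost without microglia replicate 1 or 3 or BAM replicate 2, 3 or 4 (0.075 to 0.192) and with the E18.5 groups alone (0.087).

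At E10.5 Id3 stood at 3.07, 4.74, 8.50 and 7.51 CPM in microglia and 8.56, 8.53, 15.8 and 16.7 CPM in BAM, just apart. The E11.5 values were 2.03, 2.88 and 1.80 CPM against 7.46, 4.44 and 3.49 CPM, also apart. Between E12.5 and E16.5 the populations overlapped, with 4.24 to 22.1 CPM in microglia and 7.38 to 28.5 CPM in BAM. The differences from E10.5 to E16.5 ran from 0.18 to 1.16 and none was called. With adjacent library numbers as blocks, those at E10.5 (edgeR, adjusted p = 0.0293) and E11.5 (0.0491) were called.

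The Id3 change from E10.5 to E18.5 did not pass the test in either population (0.29 ± 0.45 in microglia and 0.55 ± 0.44 in BAM, edgeR, adjusted p = 0.659 and 0.337). With the number series as a covariate, these became -1.35 (adjusted p = 0.0484) and -1.18 (0.0915), so both directions turned. The series differ within a stage only at E18.5, so this adjustment rests on replicate 1 of each E18.5 group. Within series R10, from E10.5 to E11.5, the changes were -1.37 ± 0.50 and -1.24 ± 0.49 (adjusted p = 0.0864 and 0.157), the first called by DESeq2 (0.0365). Of the other members, none reversed under this covariate in the change from E10.5 to E18.5, and Maf in microglia became called (0.69, adjusted p = 0.00822).

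Id3 was set beside transcripts of other cell types. The summed level of 10 neural markers, with 0 higher and 1 lower in BAM over the stages, ran from 105 to 1443 CPM in microglia and from 62.4 to 1363 CPM in BAM, and was highest at E14.5 in both. Sox2 was at 0 in all E11.5 BAM libraries. In R8 libraries Id3 had a median of 9.17 CPM in microglia and 16.8 in BAM, with median neural sums of 628 and 447 CPM, and in R10 libraries 2.98 and 7.997 CPM, with sums of 167 and 85.1 CPM. Within R10, the median neural sum rose from E10.5 to E11.5, from 115 to 206 CPM in microglia and from 75.0 to 89.2 in BAM. Mean Id3 fell over this step, from 5.96 to 2.24 CPM and from 12.4 to 5.13 CPM. Across the 39 libraries Pearson's r of Id3 was 0.51 with the neural sum, 0.54 with the mesenchymal, 0.50 with the endothelial and 0.55 with the choroid plexus sum. These are descriptions of libraries that share stage and series, and the part of such transcripts in the Id3 values was not tested.

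**Figure D3:**
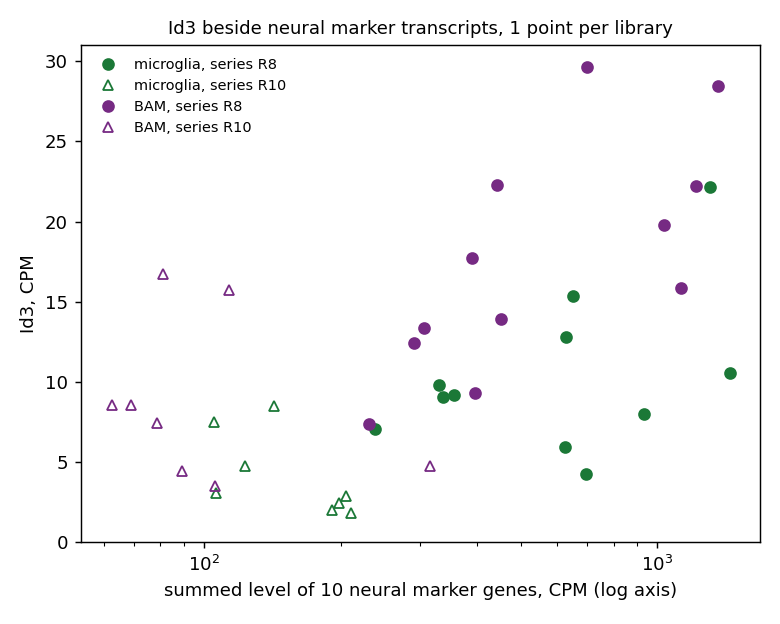
Id3 in CPM (y axis) against the summed CPM of 10 neural marker genes (x axis, log scale) in the 39 libraries. Green is microglia, purple BAM, circles series R8 and triangles series R10. R10 libraries sit at lower neural sums, with Id3 medians of 2.98 CPM in microglia and 7.997 in BAM against 9.17 and 16.8 in R8.

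Among 6 Id and E protein genes, 1 was higher and 1 lower in BAM over the stages (28.2% of all tested genes called). Id2 was lower by -0.64 ± 0.14 (edgeR, adjusted p = 0.0005) and rose from E10.5 to E18.5 by 2.84 ± 0.33 in microglia and 1.60 ± 0.31 in BAM. Tcf4, an E protein gene, was higher in BAM by 0.44 ± 0.05 (1.5e-08). Id1 (-0.21 ± 0.25) was not called, nor was Id4, which was at 0 in all E10.5 microglia libraries.

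Klf4 (ENSMUSG00000003032, GRCm38 chr4:55527143-55532466, minus strand) did not pass the test between populations at any stage (mean over stages 0.26 ± 0.28, edgeR, adjusted p = 0.624). It was the only member whose populations overlapped at all 6 stages. Up to E12.5 it stood between 2.41 and 5.51 CPM in microglia and between 2.04 and 5.84 CPM in BAM. At E14.5 the values were 4.96 and 1.22 CPM against 12.8, 3.23 and 0.914 CPM, and at E16.5 15.1, 3.53 and 2.15 CPM against 21.8, 3.56 and 4.49 CPM. Replicate 1 held the highest value in each of these 4 groups.

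At E18.5 Klf4 held 7.78, 17.0, 8.61 and 3.43 CPM in microglia and 16.1, 20.2, 18.1 and 10.9 CPM in BAM. In BAM all E18.5 libraries lay above all E10.5 and E12.5 libraries. The rise in BAM was 2.33 ± 0.64 from E10.5 (edgeR, adjusted p = 0.00403) and 2.52 ± 0.72 from E12.5 (0.0185). The latter was lost without any 1 of the 3 E12.5 BAM libraries (0.0643 to 0.0782). The endothelial marker sum in BAM went from a median of 76.9 CPM in the E10.5 libraries to 282 in those of E18.5, and the mesenchymal sum from 9.73 to 321 CPM. In E18.5 BAM replicates 1 to 4 the endothelial sum was 98.5, 192, 380 and 373 CPM and the mesenchymal sum 176, 210, 431 and 575 CPM. The summed level of 5 macrophage markers in BAM also rose, from a median of 4512 CPM at E10.5 to 10272 at E18.5. Across the 39 libraries Pearson's r of Klf4 was highest with this macrophage sum (0.40). It was 0.30 with the endothelial and 0.28 with the mesenchymal sum. The part of endothelial or mesenchymal transcripts in the Klf4 values was not tested. In microglia the change from E10.5 was 1.34 ± 0.62 (adjusted p = 0.0928), called with the compared groups alone (0.0362), and the difference between the populations' changes was not called (0.99 ± 0.87, adjusted p = 0.639).

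Of 8 other Klf genes, 3 were higher and 1 lower in BAM over the stages (28.2% of all tested genes called; median 0.49 against -0.02). Klf7 (0.73 ± 0.08) and Klf10 (0.74 ± 0.10) were higher and Klf13 (-0.48 ± 0.06) lower. Klf6, an abundant member of the family, was higher by 0.35 ± 0.11 (edgeR, adjusted p = 0.014) and fell from E10.5 to E18.5 by 0.76 on the log2 scale in microglia and 0.71 in BAM. Klf2, which is also in the self-renewal list, was not called (-0.37 ± 0.26).

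With the stages set against each other, 4 of the 9 genes were called from E10.5 to E18.5 in microglia, where 35.3% of all tested genes were. Bhlhe41, Etv1 and Mlxipl rose and Tfec fell. In BAM 7 were called, beside 37.6% of all tested genes: Maf, Bhlhe40, Bhlhe41, Etv1, Klf4 and Mlxipl rose and Nr1h3 fell. From E12.5 to E18.5 the counts were 4 in microglia (6.74% of all tested genes) and 4 in BAM (10.6%). Bhlhe41, Etv1 and Mlxipl were among the called genes of both.

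The step from E10.5 to E11.5, within series R10, gave 2 called genes in microglia (8.26% of all tested genes), Bhlhe41 and Mlxipl. It gave 2 in BAM (4.42%), Maf and Bhlhe40. The BAM and microglia changes from E10.5 to E18.5 differed by the test of the difference for 4 of the 9 genes (6.63% of all tested genes), Bhlhe40, Bhlhe41, Nr1h3 and Tfec. From E12.5 they differed for 2 (2.19%), Bhlhe41 and Mlxipl.

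**Figure D4:**
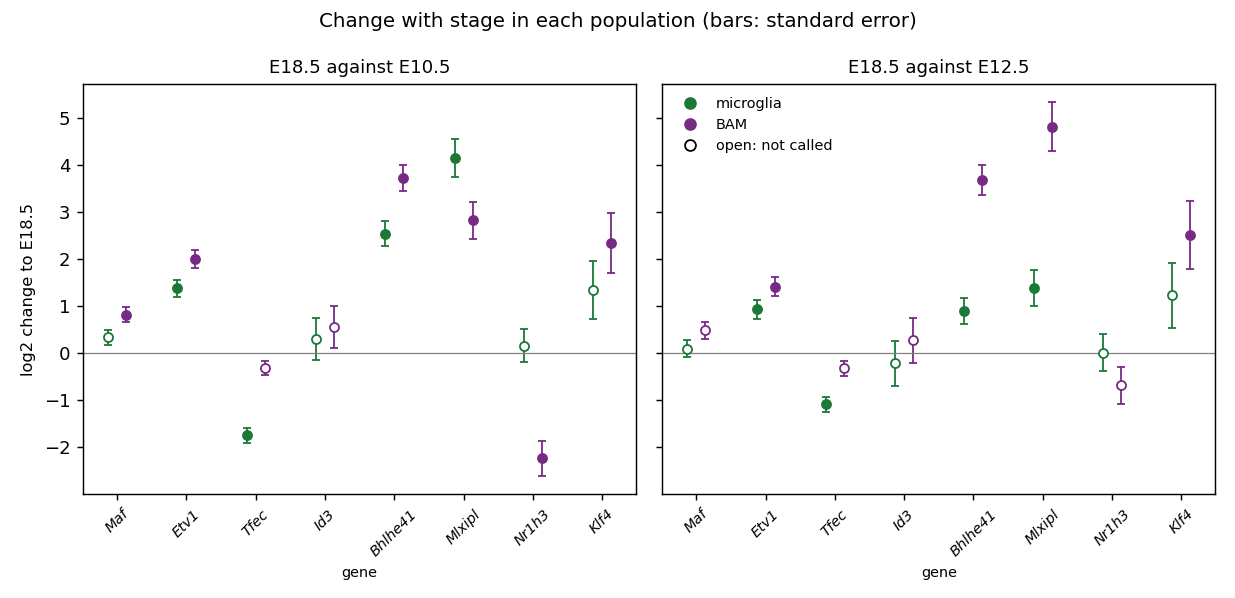
Log2 change to E18.5 (y axis) from E10.5 (left) and from E12.5 (right) for 8 of the 9 genes (x axis), in microglia (green) and BAM (purple), with standard errors from edgeR as bars and open points for changes not called. Bhlhe40 is left out because its E10.5 BAM libraries are all at 0. Tfec falls in microglia by 1.75 against -0.32 in BAM, and the BAM rises of Bhlhe41 and Mlxipl from E12.5 exceed those of microglia.

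The member genes also differed in which genes of the whole table were most like them. Likeness was Pearson's r of the 12 group means on the log2(CPM + 1) scale, among the 7699 genes whose average log2 CPM was 4 or more, and is a description of groups that share stage and population. Mlxipl was nearest to Npc1 (0.98), P2ry13 (0.98) and Gpr155 (0.98), and Bhlhe41 to Cd82 (0.98), March1 (0.96) and Gsap (0.96). Etv1 was nearest to Arhgap12, Il10rb and Fggy (0.98 each), and Tfec to Tnfaip8 (0.98), Dok2 (0.98) and Ms4a6b (0.97). For Maf the nearest were Mfsd11 (0.95), Nr3c1 (0.95) and Rab14 (0.95).

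Weaker matches came with the genes of low level. Id3 was nearest to Gap43 (0.92), a gene of growing axons, Dctn6 (0.92) and Deaf1 (0.91). Klf4 was nearest to Syngr2 (0.92), Irf2 (0.91) and Irf2bp2 (0.90), Bhlhe40 to Lnpep (0.92), Cd33 (0.91) and Thada (0.91), and Nr1h3 to Pcgf6 (0.89), Tmf1 (0.87) and Arglu1 (0.86). Over the 39 libraries many of these matches were looser. There r was 0.59 for Bhlhe40 with Lnpep (rank 249 of 7699) and 0.47 with Thada (rank 638), while Cd33 ranked first at 0.79. For Klf4 with Irf2 it was 0.52 (rank 77), for Id3 with Deaf1 0.67 (rank 60), and for Nr1h3 at most 0.62. Between members, r over the 12 groups was 0.93 for Maf with Etv1, 0.92 for Bhlhe41 with Mlxipl and -0.89 for Tfec with Mlxipl.

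Among 8 tested factors of other tissue macrophages, 2 were higher and 3 lower in BAM over the stages (28.2% of all tested genes called), and Gata6 did not pass the filter. Irf8, a factor that microglia need, was lower in BAM by -0.76 ± 0.05 (edgeR, adjusted p = 9.8e-16), and Rara, the retinoic acid receptor alpha gene, was higher by 1.52 ± 0.17 (3.7e-09). Runx3 was lower as well, with 18.1 ± 3.78 CPM (SD, n = 3) in E11.5 microglia and 2.58 ± 1.49 in E11.5 BAM, and was at 0 in all E16.5 BAM libraries.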

How the data were processed

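RNA from sorted microglia and BAM of embryonic mouse brain was extracted with PicoPure kits, amplified from 2 ng by a SMART-seq v2 type method and sequenced paired-end, per the labels' protocols. The deposited table holds raw read counts per gene, made by the authors with STAR and featureCounts on GRCm38, per the submitters' processing notes; their versions, and whether strand was used, are not given in the sources used here. The deposited table also gives a gene length, used to set CPM per kilobase. No row lacks a gene, and 53274 of 53379 identifiers have a symbol. Even counts were in excess (21280 entries of 1, 49977 of 2, 12637 of 3 and 30062 of 4).

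Counts were tested with edgeR 4.0.16 (R 4.3.3, limma 3.58.1): filterByExpr (minimum count 10, minimum total 15) kept 22061 genes with 99.973% of the counts, TMM scaling followed, and 1 coefficient per group was fitted with glmQLFit over 39 libraries (27 residual df; the common BCV, the spread between replicates, was 55.1%). The 15 comparisons used glmQLFTest, with Benjamini-Hochberg adjustment over all tested genes. Library totals ran from 10692763 to 47182711 counts, and the bounds from 3 counts cover counting error only. In data simulated for BAM against microglia at E18.5 (21034 genes), 76% of changed genes whose average log2 CPM was 4 or more were recovered at 2-fold and 100% at 4-fold, and 20% and 34% of changed genes of any level. At E14.5 (21034 genes) 36% were recovered at 2-fold above that level and 10% at any level. Bhlhe40, Klf4, Nr1h3 and Id3 lay mostly below it. Only 100 genes were changed at each fold in the simulation, a far smaller share than the 15.4% called at E18.5. Its recovery rates therefore need not hold for the real tests.

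The text names the 9 genes, up to 3 genes per related list by smallest adjusted p, a set of close relatives, and the 3 most alike genes of each. Of the genes this rule names, 2 are not reported here. The genes and lists were chosen with earlier results of these data known. Alternatives were DESeq2's size factors (RLE), DESeq2 1.42.0, no filter, halved counts, the compared groups alone, a block of adjacent library numbers, the number series as a covariate, and leaving out libraries. Figures and levels used pandas 2.3.3, numpy 2.4.6 and matplotlib 3.10.9.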

Additional observations from a re-analysis of the deposited data

Results flagged for a closer look

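In groups of 4 libraries, the gap between the end library and its nearest neighbour was compared with the range of the group and held against Dixon's 95% critical value for 4 samples. Bhlhe40 reached 7.82 CPM in E18.5 BAM replicate 3, apart from the other 3 libraries (gap 0.849 of the range). Mlxipl reached 4.85 CPM in E10.5 microglia replicate 3 (0.843). These were 2 of 35 groups tested, and chance gives about 1 in 20.

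The changes of the populations with stage differed by the test of the difference itself (edgeR, adjusted p under 0.05) for 4 genes from E10.5 to E18.5. The change in BAM less that in microglia was 1.19 for Bhlhe41, -2.39 for Nr1h3 and 1.42 for Tfec on the log2 scale. For Bhlhe40 the fitted value was 8.70, which rests on a group at 0 counts and is no bound. From E12.5 to E18.5 it was 2.78 for Bhlhe41 and 3.43 for Mlxipl.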

How the results depend on the processing

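Of 68 called results of the 9 genes, 55 kept their call and direction in every alternative that gave them a value. Bhlhe40 did not pass the low-count filter with the E10.5 and E11.5 BAM groups alone, so it had no value there. The number of called genes fell from 4 to 2 for microglia from E12.5 to E18.5 without the E18.5 libraries of series R10, and from 2 to 1 for BAM from E10.5 to E11.5 with the compared groups alone. With 1 library left out, the numbers called ran from 3 to 4 at E10.5 (5 with all libraries), from 4 to 7 at E18.5 (7; 4 without BAM replicate 4), from 2 to 4 in microglia from E12.5 to E18.5 (4) and from 1 to 2 in BAM from E10.5 to E11.5 (2).

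No value that turned was called with all libraries. Id3 from E10.5 to E18.5 turned to -1.35 in microglia and -1.18 in BAM with the number series as a covariate, which rests on replicate 1 of each E18.5 group. The microglia change from E12.5 to E18.5 turned for Nr1h3 (0.01) to -0.014 with RLE, -0.0078 with no filter, -0.094 without the R10 libraries, -0.012 by DESeq2 and -0.0067 with the groups alone, and for Maf (0.09) to -0.060 without the R10 libraries.

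Without 1 library each, the Klf4 difference ran from -0.50 to 0.34 at E11.5, -0.55 to 2.25 at E14.5 and -0.71 to 1.85 at E16.5, and its early BAM change from -0.43 to 0.42. The Id3 difference ran from -0.026 to 1.05 at E14.5 and -0.089 to 0.47 at E16.5, its change from E12.5 from -0.55 to 0.29 in microglia and -0.027 to 0.55 in BAM, and the difference of its changes from -0.041 to 0.58 from E10.5 and -0.069 to 0.83 from E12.5. Nr1h3 ran from -0.63 to 0.024 at E14.5, and in microglia from -0.031 to 0.28 (E10.5 to E18.5), -0.16 to 0.31 (E12.5 to E18.5) and -0.14 to 0.18 (E10.5 to E11.5). Also in microglia, Maf ran from -0.029 to 0.21 from E12.5, and Bhlhe40 from -0.11 to 0.30 and Tfec from -0.16 to 0.019 in the early step, where BAM ran from -0.21 to 0.25 for Bhlhe41 and -0.24 to 0.63 for Mlxipl. The causes were not tested.

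Samples with adjacent library numbers gave deviations correlated by 0.0002 to 0.194 (19 pairs, median 0.074, 6 over 0.1), all of them positive. The labels do not say whether such samples share embryos, and the main tests did not pair them. With a block of these pairs, 7 genes were called over the stages, 6 at E10.5, 5 at E11.5 and 6 at E18.5. Calls were gained for Id3 at E10.5 (adjusted p = 0.0293) and E11.5 (0.0491), Mlxipl at E10.5 (0.00634), and for the difference of changes Maf from E10.5 (0.0256) and Tfec from E12.5 (0.0286), and lost for Nr1h3 at E10.5 (0.123) and E18.5 (0.0576), all by edgeR. The Klf4 difference turned to -0.065 at E11.5 and -0.47 at E14.5.

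Counts over all tested genes moved most for the early BAM step (976; 1731 by DESeq2, 358 with the groups alone, 650 and 629 without E11.5 replicate 1 or 2) and for E10.5 (989; 1611 and 524 likewise). With the groups alone E11.5 went from 1470 to 929 and the early microglia step from 1822 to 1025. Leaving out 1 library gave 826 against 1584 at E14.5 (microglia replicate 1), 702 against 1488 for microglia from E12.5 (E12.5 replicate 3) and 1527 against 2330 for BAM from E12.5 (E12.5 replicate 3). The difference of the changes from E12.5 went from 483 to 791 by DESeq2, 754 with the block, and 318 and 312 without E12.5 BAM replicate 2 or microglia replicate 3. Microglia at E14.5 had only 2 libraries, and Bhlhe40, Klf4 and Nr1h3 lay at a few CPM, where the spread between libraries limits what can be called.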
